A study of Lates calcarifer with 24 samples.

Results

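The gene described here is fatty acid desaturase 2 (fads2), measured in the liver of juvenile Asian seabass (Lates calcarifer) by 1 of the 60080 probes of a custom one-colour Agilent array. The member was found through the study's supplementary list, which pairs fads2 with the probe CUST_6543_PI428621111. Liver samples on 24 arrays were analysed, with 4 per feed group in 6 groups, and the labels tell of 4 fish taken from each group. Fish of Groups B, C, D, E and F received a different commercial pelleted feed each, and fish of Group A, the control, received frozen baitfish. All were siblings of a single cross of brooders selected for growth, were fed for 61 days from 107 days post-hatch, and were sampled at 168 days post-hatch. One pair of parents thus stands behind every group. Baitfish, which holds more water, was given at a larger share of body weight than pellets were, to bring the energy intake to a similar level, so the type of feed and the amount fed cannot be told apart in comparisons with Group A. Group letters are those of the sample labels. Whether the label letters C to F stand for the feeds that the study calls C to F was not settled here, and no feed composition is tied to a letter. The study left its feeds E and F out of its analysis, since E came in a single pellet size and F was given in a smaller amount with a lower energy intake, and all 5 pellet groups are described here.

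The enzyme encoded by fads2 is a front-end desaturase of the endoplasmic reticulum. In fish and mammals it puts a double bond into linoleic and α-linolenic acid, the step that opens the synthesis of long-chain polyunsaturated fatty acids, and elongases of the Elovl5 type lengthen its products. In Asian seabass it is known as the Δ6 fatty acyl desaturase. The liver is a main site of this pathway in fish, and fads2 is known in many teleosts as a gene that responds to the fatty acids of the diet.

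The sequences at hand for this gene are the primers the study designed to quantify fads2 by PCR, shown in lower case from 5′ to 3′. They belong to the PCR assay and were not aligned to a transcript or to the array probe.
forward primer: atcgccatttccagcatcac
reverse primer: atcccgtactccactggttg
Both are 20 bases long, with 10 and 11 G or C bases. In the RefSeq gene table of the assembly TLL_Latcal_v3, fads2 is 1 protein-coding gene with 1 transcript model, between LOC108885751 and eps8l2, and it is 1 of 2 symbols that begin with fads (the other is fads6). The sequence of the array probe was not used here, so how far the probe tells fads2 from related transcripts was not tested.

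The 24 arrays lay on 3 slides. Of all spots on an array, between 20.4% and 36.0% were well above background, a yes-or-no call the scanner software makes for each spot. How the software sets the background for this call was not examined. The 75th percentile of the intensity was 22.2 to 32.9 on slide 1, 42.4 to 57.7 on slide 2 and 44.7 to 80.2 on slide 3. The liver genes serpina1, which encodes the plasma protein α1-antitrypsin, and lbp were well above background on all 24 arrays. Their levels in Group D went opposite ways, at -1.11 for serpina1 and 2.34 for lbp on the log2 scale relative to Group A. Probes for blood, pancreas, muscle or intestine genes were not named in the sources used here, so a share of other tissue was not tested.

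fads2 was bright in every liver of fish fed pellets and lower in every liver of fish fed baitfish. Its spot was well above background on all 20 arrays of Groups B to F, against 2 of the 4 arrays of Group A. No fads2 spot was saturated or marked as an outlier. Levels below are log2 values of the quantile-normalized intensity, on which 1 unit is a 2-fold difference.

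In Group B the 4 livers read 8.51, 8.60, 9.28 and 8.61 (replicates 1 to 4). In Group C they read 8.86, 10.46, 9.07 and 8.86. Livers of Group D read 11.44, 11.07, 9.01 and 10.10. These 3 groups overlapped, with the highest values of all in 2 livers of Group D. Group E read 8.35, 10.84, 9.87 and 9.47, and Group F read 9.0, 8.67, 10.35 and 9.71, where the replicate numbers 2 to 4 are not certain because the deposited processed columns match the scanner output in another order. Group A read 7.80, 3.30, 5.43 and 7.67. The lowest liver of any pellet group, replicate 1 of Group E, was thus above the highest liver of Group A, by 0.54 on the log2 scale or 1.46-fold.

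**Figure D1:**
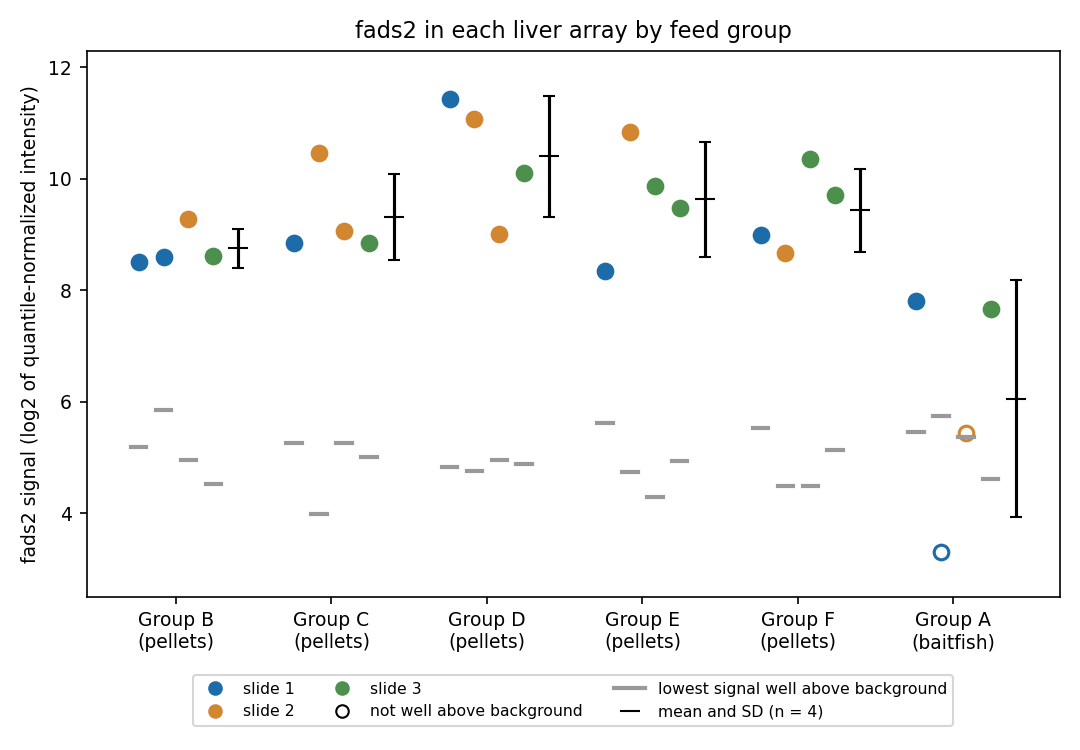
The y axis is the log2 of the quantile-normalized fads2 intensity in each array, by feed group on the x axis, with the slide as colour, the mean and SD (n = 4) in black and, in grey, the lowest signal well above background on that array. All 20 arrays of Groups B to F sit at 8.35 or higher, and the 4 of Group A at 7.80 or lower, with open symbols for the 2 that were not well above background.

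The scanner intensities before normalization did not overlap either, but only by a narrow gap. They spanned 219 to 2575 over the 20 arrays of Groups B to F and 9.67 to 206 over those of Group A. The 219 (replicate 2 of Group B, slide 1) had a scanner error of 23.2. The 206 (replicate 4 of Group A, slide 3) had an error of 21.4. The gap between them is smaller than either error. Set among all probes of its array, fads2 stood between percentiles 92.3 and 98.1 in pellet-fed fish, against percentiles 53.8 to 90.2 in Group A. It was therefore among the brighter probes of every pellet-fed liver, although the same probe on replicate 2 of Group A was near the middle of all probes. The intensity there was 9.67, and the scanner software gave it an error of 88.4%. On replicate 3 of Group A the error was 23.3%, while it was 10% to 11.1% on the 22 arrays where the spot was well above background. The normalized values of replicates 2 and 3 of Group A are thus much less precise than the others, and that of replicate 2 lay below the lowest signal well above background on its array (5.75 on the log2 scale). Fewer cells that express the gene and less RNA per cell cannot be told apart in whole liver.

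Group means ran from 10.41 ± 1.09 in Group D through 9.63 ± 1.03 in Group E, 9.43 ± 0.75 in Group F, 9.31 ± 0.77 in Group C and 8.75 ± 0.35 in Group B to 6.05 ± 2.13 in Group A (SD, n = 4 each). The highest and the lowest of the 4 livers differed 1.70-fold in Group B, 3.04-fold in C, 3.21-fold in F, 5.39-fold in D and 5.63-fold in E. In Group A they differed 22.6-fold as measured, and 5.18-fold once dim values below the lowest signal well above background on their array were raised to it.

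Whether the hepatic level of fads2 differed between fish on a pelleted feed and fish on baitfish was tested with limma, with feed group as the only factor and Benjamini-Hochberg adjustment over all probes. In Group D fads2 was higher than in Group A by 4.35 on the log2 scale (SE 0.79, 95% interval 2.69 to 6.01), which is 20.5-fold, with an adjusted p of 0.00421. It was thus called higher (adjusted p under 0.05, fold-change 2 or more), as were 1.48% of all probes in that comparison. Over Groups B to F together the mean was 3.46 above Group A (SE 0.61, 2.17 to 4.74), or 11-fold, with an adjusted p of 0.00602 where 0.874% of probes were called higher.

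In the other 4 groups the estimate was large and the adjusted p missed the threshold. Group E was 3.58 above Group A (1.92 to 5.24, 12-fold), with an adjusted p of 0.102. Group F was 3.38 above it (1.72 to 5.04, 10.4-fold), with an adjusted p of 0.163. The interval of each of these comparisons left out 0, and only the adjustment over all probes kept them from a call. Group C was 3.26 above Group A (1.60 to 4.92, 9.58-fold, adjusted p 0.133), and Group B 2.70 above it (1.04 to 4.36, 6.50-fold, adjusted p 0.201). Few probes were called higher in these comparisons, namely 0.188% in Group B, 0.0732% in Group C, 0.0233% in Group E and 0.02% in Group F. All 5 comparisons share the same 4 arrays of Group A, so they are not independent of each other.

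All 4 livers of each pellet group were above all 4 of Group A. The exact two-sided permutation test gave p = 0.0286 for each group, the smallest that 70 splits of 8 arrays allow. Adjustment over the 5 comparisons left it at 0.0286, as it must where all 5 values are equal, so it adds no information. For the 20 pellet-fed livers against the 4 of Group A the exact permutation test gave p = 9.41e-05, also the smallest possible. Such a complete separation was found for a small share of probes on the array, but chance alone also gives it. All 4 arrays of the pellet group were above all 4 of Group A for 1.82% of probes in Group B, 1.84% in Group C, 3.4% in Group D, 1.86% in Group E and 1.76% in Group F, and 0.193% had all 20 pellet arrays above them. By chance, only the split with the 4 highest arrays in the pellet group, out of 70, gives this separation. The shares in Groups B, C, E and F were only slightly above that chance share. Separation in any of these groups taken alone is thus little evidence about fads2.

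The size of the difference rested partly on the dim spots of Group A. Dim values below the lowest signal well above background on their array were raised to it. Group D was then 3.74 above Group A and Group B 2.09 above it. For fads2 this step changed only replicate 2 of Group A. Replicate 3, at 5.43, lay just above the lowest such signal on its array (5.36) and was kept as measured. With normexp background correction, which pulls dim values up, the differences were 3.00 in Group D and 1.51 in Group B, and in the deposited processed values 3.15 and 1.62. Without replicate 2 of Group A, Group D was 3.43 above Group A (adjusted p 0.0108) and the mean of Groups B to F 2.54 above it (adjusted p 0.0252).

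**Figure D2:**
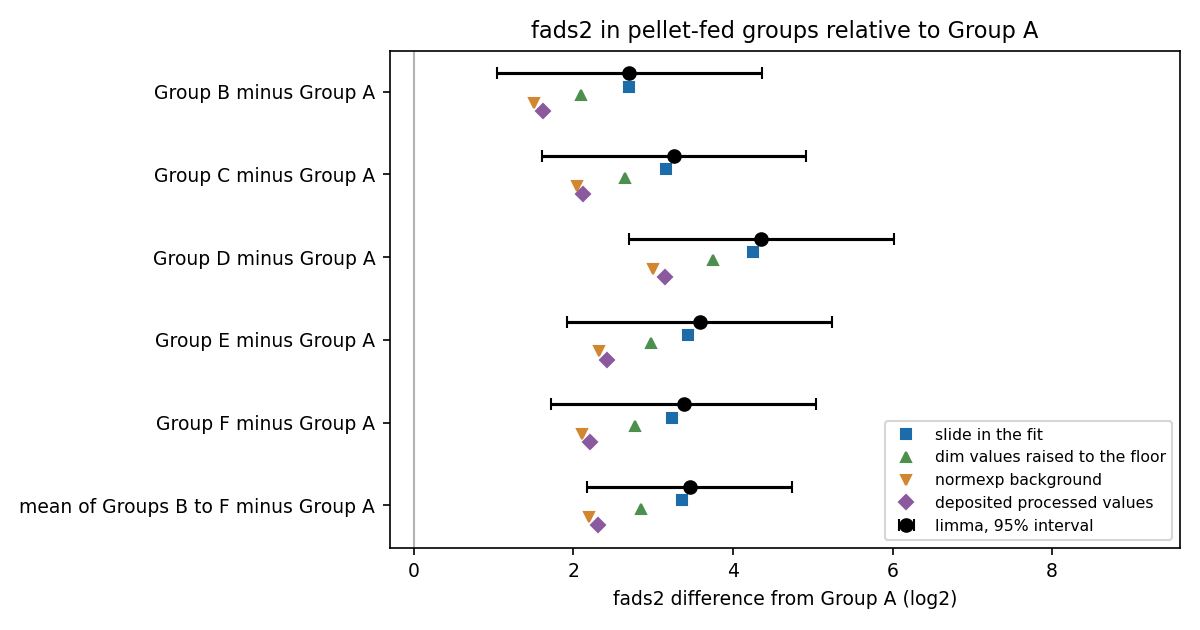
The x axis is the fads2 difference from Group A on the log2 scale, for each pellet group and for their mean, with 95% intervals for the limma fit and points for 4 other ways to process the data. Every estimate lies above 0, and normexp and the deposited values give the smallest ones, down to 1.51 in Group B.

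Each slide held arrays of all 6 groups, and the difference was positive on each. On slide 1 the pellet groups were 2.79 to 5.89 above the 2 arrays of Group A there. On slide 2 they were 3.24 to 5.41 above replicate 3 of Group A, and on slide 3 only 0.945 to 2.43 above its replicate 4. The smallest differences thus came from the slide whose only array of Group A had fads2 well above background. With slide in the fit, Group D was 4.25 above Group A (adjusted p 0.00732) and the mean of Groups B to F 3.35 above it (adjusted p 0.0105).

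**Figure D3:**
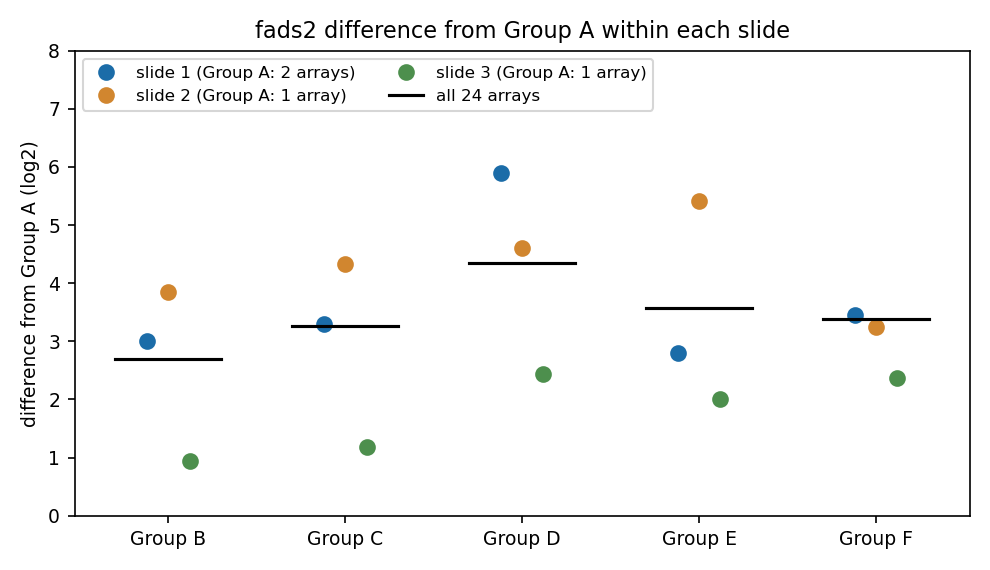
The y axis is the fads2 difference from Group A on the log2 scale within each slide (colours), and black lines give the difference over all 24 arrays. Groups B to F are on the x axis, all 15 differences are above 0, and those on slide 3 are the smallest in each group.

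Among the 5 pelleted feeds no difference in fads2 passed a test. The F-test across Groups B to F gave an adjusted p of 1, in a test that called 0.035% of probes. Of the 10 pairs of pellet groups, limma called 0, and 0 had an unadjusted p below 0.05. Few probes were called in any such pair. The share was 0.0466% between D and E, 0.0399% between D and F, 0.0133% between C and D, 0.00832% between B and D, 0.00499% between C and E, 0.00166% between B and C and between B and E, and 0% in the other 3 pairs. The widest difference was that of Group B from Group D, at -1.65 on the log2 scale (-3.31 to 0.01, unadjusted p 0.0509 in limma), and the exact permutation test gave p = 0.0571 for it.

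Neighbours in the order of the means did not differ beyond their spread. Group D was 0.77 above E (-0.89 to 2.43) and Group E 0.20 above F (-1.46 to 1.86). Group C differed from F by -0.12 (-1.78 to 1.54) and Group B from C by -0.56 (-2.22 to 1.1). Each of these intervals includes 0 and leaves room for a several-fold difference in at least 1 direction. The 4 livers per group thus do not settle the order of the pelleted feeds. Across all 6 groups, Group A included, the F-test gave an adjusted p of 0.0731, in a test that called 0.528% of probes.

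A further 3 probes of lipid metabolism were named in the same supplementary list. elovl5 and elovl1b encode elongases of fatty acid chains, and tm7sf2 a sterol reductase of cholesterol synthesis. Of the 3, limma called 3 higher in Group D, 2 in the mean of Groups B to F and 0 in each of Groups B, C, E and F, where unadjusted p-values below 0.05 were found for 3, 3, 2 and 2 of them. Of all probes, 1.48% were called higher in Group D and 0.874% in the mean, and 4.38%, 3.85%, 4.51% and 3.46% were higher at an unadjusted p below 0.05 in Groups B, C, E and F. Their median difference from Group A was 1.88 in Group B, 2.41 in Group C, 2.11 in Group D, 1.76 in Group E and 1.13 in Group F, while the median of all probes was within 0.02 of 0. With dim values of Group A raised to the lowest signal well above background, these medians were 0.65, 1.45, 1.54, 1.20 and 0.56 in Groups B to F. Dim values of the pellet groups were kept as measured, so these medians are not strict lower limits. The 11 other probes of the list, which stand for other functions, counted 6 called higher and 2 called lower in Group D, where 0.473% of all probes were called lower. In Group B 2 of them were called higher, against 0.188% of all probes. In the mean 4 were called higher, and 0 in each of Groups C, E and F. They were higher at an unadjusted p below 0.05 in limma for 6, 7, 6 and 5 probes in Groups B, C, E and F. Apart from fads2 and elovl5, taken up as genes known to respond to dietary fatty acids, the study chose this list on these samples, so the counts are no independent evidence of a direction.

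elovl5, whose product acts directly after Fads2, read 6.57 to 7.77 in Group D and 3.66 to 6.50 in Group A. In limma it was higher in Group D by 2.11 on the log2 scale (adjusted p 0.0263), and by 1.94 in the mean of Groups B to F (adjusted p 0.0127). The differences in Groups C and B were larger than in D, at 2.41 (adjusted p 0.067) and 2.28 (adjusted p 0.0574), though not called. Those in Groups E and F were smaller, at 1.76 (adjusted p 0.215) and 1.13 (adjusted p 0.665). Group D was thus not the group with the largest elovl5 difference. Like fads2, it was well above background on 2 of the 4 arrays of Group A and not on replicates 2 and 3. With those dim values raised as before, the estimate for elovl5 was 2.91-fold higher in Group D and 2.58-fold higher in the mean. Neither is a strict lower limit. Of all spots on replicates 2 and 3, 21.6% and 23.9% were well above background, against 22.9% and 29.8% on replicates 1 and 4, and the part of this in the result was not tested.

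tm7sf2 was well above background on all 4 arrays of Group D and on none of Group A, so the size of the change is uncertain. With dim values of Group A raised as before, the estimate was 5.49-fold higher in Group D (adjusted p 0.00157 in limma for the values as measured). Over the mean of Groups B to F the same calculation gave 2.79-fold (adjusted p 0.00416 in limma, again for the values as measured). This calculation sets the mean of the pellet arrays against the dimmest signal that still passed the background call on each array of Group A, or the tm7sf2 value itself where that was higher. In the mean it uses all 20 pellet arrays, of which 15 had tm7sf2 well above background. The 2.79-fold is therefore not a strict lower limit. elovl1b was measured well above background on every array. It was higher in Group D by 1.25 on the log2 scale (adjusted p 0.00112) and, over the mean of Groups B to F, by 0.62 (adjusted p 0.0355), which is short of 2-fold.

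The probes whose level followed fads2 most closely were then sought over the 24 arrays, among 14201 probes well above background on at least 12 of them. The highest Pearson r with fads2 was 0.99 for CUST_9429_PI428621111 (Spearman 0.97), followed by 0.96 for CUST_20313_PI428621111 (Spearman 0.84). The files pair neither probe with a gene, and whether they report transcripts separate from that of fads2 was not tested. The median over all 14201 probes was 0.05, and 6 probes reached 0.8. Groups and slides are shared by all probes, and part of such a correlation is the split of the pellet groups from Group A, so r was also taken after each group's mean was removed. It was then 0.97 and 0.95, and over the 20 pellet arrays alone 0.97 and 0.83.

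CUST_9429_PI428621111 read 9.73 to 12.26 in Group D, 9.25 to 11.28 in E, 9.28 to 10.74 in F, 9.02 to 10.85 in C and 8.97 to 9.85 in B, against 2.98 to 8.54 in Group A. Its lowest values were those of replicates 2 and 3 of Group A (2.98 and 5.92), as for fads2. It was well above background on replicate 3 and on 3 of the 4 arrays of Group A in all. CUST_20313_PI428621111 read 12.29 to 15.22 over the pellet arrays, against 12.34, 6.78, 9.06 and 11.57 in Group A, and it was well above background on all 4 arrays of Group A. Both probes were picked for their likeness to fads2 on these arrays, so their pattern is a description.

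The named lipid probes followed fads2 less closely. The Pearson r over the 24 arrays was 0.73 for tm7sf2, 0.53 for elovl1b and 0.52 for elovl5, and with the group means removed it was 0.18, 0.13 and 0.05. Over the 20 pellet arrays alone it was 0.69, 0.26 and -0.30, and tm7sf2 was not well above background on any array of Group A. The lowest r among the 14201 probes were -0.74 for CUST_1153_PI428621111 and -0.72 for CUST_12612_PI428621111. CUST_12612_PI428621111 averaged 10.31 in Group D and 11.53 in Group A.

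**Figure D4:**
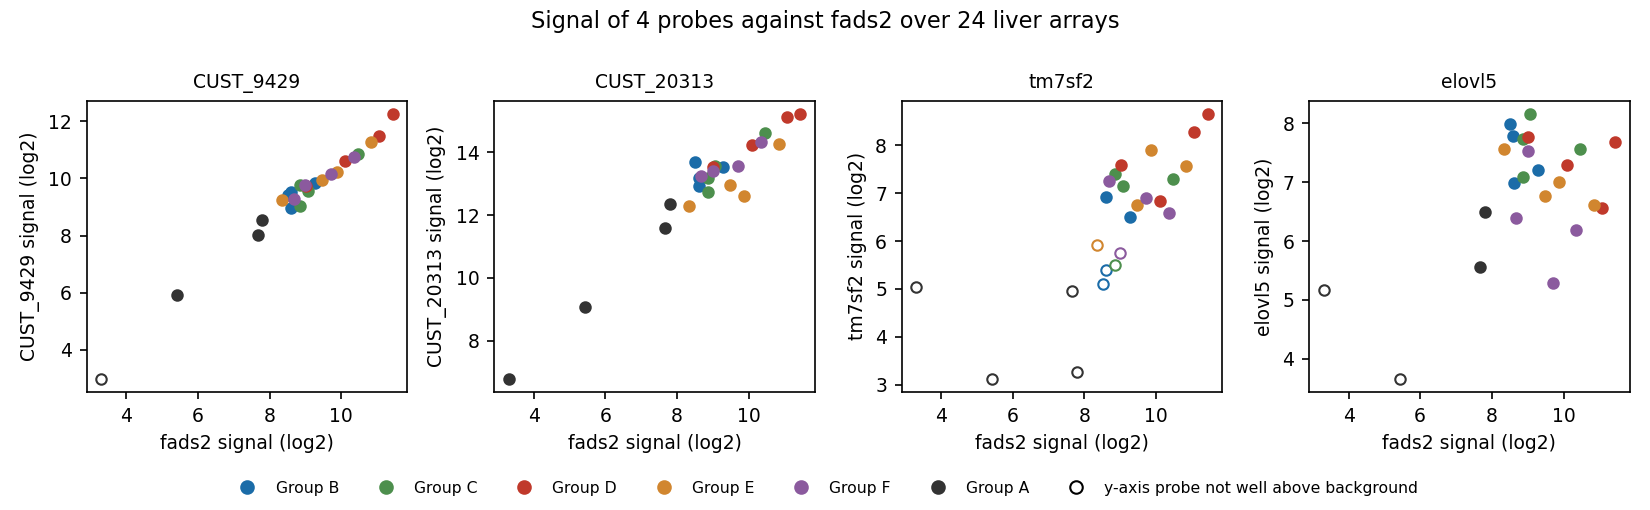
Each panel sets the log2 signal of 1 probe (y axis) against that of fads2 (x axis) over the 24 arrays, with feed groups as colours and open symbols where the probe on the y axis was not well above background. The 2 closest probes, at r = 0.99 and 0.96, form a narrow band that includes Group A, while tm7sf2 (0.73) and elovl5 (0.52) scatter widely.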

How the data were processed

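Liver RNA was measured on 24 one-colour (Cy3) custom Agilent arrays. The authors scanned them with Feature Extraction 10.7.1.1, per the file headers, and each deposited scanner file gives a background-subtracted intensity per spot with yes-or-no flags. A deposited series table gives log2 expression per probe as the authors quantile-normalized it with Partek. Its median was 6.25, against 3.17 here, and its slope on the values used here was 0.57, so its scale is narrower than the one used here. On the log2 of the scanner's median signal, without background subtraction, the slope of the deposited table was 1.05 to 1.30. How its background was corrected is not given in the sources used here. These values served as an alternative.

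The background-subtracted intensities of all 24 arrays were quantile-normalized and log2-transformed, without control spots and outlier spots, and the 1500 repeat spots were averaged within probes. Dim probes were kept, and 48 of 60080 probes had a missing value. The fads2 probe has 1 spot per array. limma 3.58.1 (R 4.3.3) was fitted by group, with 18 residual and 1.30 prior degrees of freedom. The methods fitted Groups A to D, an alternative here. Calls need an adjusted p below 0.05 and a 2-fold change. The p-values reflect the spread among 4 arrays per group, whose number limits the precision. The study gave each feed to whole canvases, spread over several tanks. The canvas and tank of each liver were not taken into account here, so livers of a group may not be independent units of the feed. The labels tell of 4 fish per group, the methods name more fish for RNA extraction, and neither says how these map to arrays or whether RNA was pooled. Exact permutation tests were two-sided. No 2 arrays held identical values, and 0 processed columns stayed unmatched. Slide numbers are those of the scanner output.

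Named probes are fads2, elovl5, elovl1b and tm7sf2, with the other 11 paired probes as counts and the 2 highest and 2 lowest correlations with fads2. Of those 11, serpina1 and lbp are also named as liver genes. The gene and lists were chosen with earlier results of these data known. The fit was run on simulated data with large shifts and independent noise. That simulation had no slide effect and did not imitate the dim spots of Group A, so it does not cover them. Alternatives were other scalings, normexp (offset 50), the deposited values, outlier spots kept, Groups A to D only, only probes well above background on at least 12 arrays, a block for slide or for replicate number, variances not moderated, separate fits, the methods' t-test, and leaving out 1 array. Scaling over all probes, raising dim values and leaving out a slide were added after seeing the data. Data were read with jsonlite 2.0.0 and version 1.17.8 of data.table, and figures drawn with matplotlib 3.10.9.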

Additional observations from a re-analysis of the deposited data

Results flagged for a closer look

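In 5 of the 24 sets of 4 arrays tested (4 named genes in 6 groups), 1 array stood apart from the other 3 by Dixon's criterion at 95%, and chance alone flags about 1 in 20 sets. For fads2 these were replicate 3 of Group B, at 9.28 on the log2 scale, and replicate 2 of Group C, at 10.46, each the highest of its group and each on slide 2. For elovl1b replicate 2 of Group D stood apart at 9.75, and replicate 1 of Group E at 9.09, each the highest of its group. For tm7sf2 replicate 1 of Group C was the lowest of its group at 5.49 and was not well above background. The low fads2 values of Group A did not meet this criterion. Replicate 2 was the lowest at 3.30, but replicate 3 at 5.43 lay between it and replicates 1 and 4 (7.80 and 7.67).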

How the results depend on the processing

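The fads2 difference from Group A stayed positive for each pellet group and for their mean under every alternative run. Its adjusted p changed side in these cases. In separate fits of 2 groups the adjusted p of Group D was 0.180 (difference 4.35), and with the methods' t-test 0.318. That t-test gave an unadjusted p below 0.05 in 5 of 5 comparisons, and 0 of 5 after Benjamini-Hochberg adjustment. Among the 60080 probes, 2785, 2456, 4489, 2974 and 2171 had an unadjusted p below 0.05 in it for Groups B to F. The 5 comparisons share the arrays of Group A, so the count is not 5 independent results. With 8 arrays of a slide left out, Group D was 3.48 above Group A without slide 1 (adjusted p 0.0582), 4.52 without slide 2 (0.16) and 4.96 without slide 3 (0.0749). The mean of Groups B to F was then 3.04 (0.0612), 3.17 (0.163) and 3.90 (0.0826) above it. These alternatives use fewer arrays or do not share the spread of all groups. With only the probes well above background on at least 12 of the arrays, which adjusts over fewer probes, Group C (3.26, adjusted p 0.0392), Group E (3.58, 0.0306) and Group F (3.38, 0.0446) passed as well, and the F-test across 6 groups gave 0.0172. That F-test also passed with scaling over probes well above background on every array (0.0469), normexp (0.0429), the deposited values (0.0427) and dim values raised to the floor (0.00894), and the cause was not tested.

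Leaving out each array in turn changed no call. The differences ranged over 1.78 to 3.29 in Group B, 2.34 to 3.85 in C, 3.43 to 4.94 in D, 2.66 to 4.17 in E and 2.46 to 3.97 in F, and over 2.54 to 4.04 in the mean. The adjusted p ranged over 0.00274 to 0.0209 in D and 0.00499 to 0.0333 in the mean.

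Same-numbered arrays of different groups had deviations that correlated between -0.23 and 0.32. Among arrays of other groups, 20 of 24 arrays were most like an array of their own number, and what these arrays share was not tested. Every replicate 1 lay on slide 1 and every replicate 4 on slide 3, so number and slide partly coincide. The main fit did not take the numbers as pairs. With the replicate number as a block, Group D was 4.35 above Group A (adjusted p 0.00988) and the mean 3.46 (0.0127), and no call changed.

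In Group A the signal of fads2 limits the comparison, since only 2 of 4 spots were well above background.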

Other observations

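Of the 24 columns of the deposited processed table, 21 matched the scanner output of the same sample best. In Group F, the columns of replicates 2, 3 and 4 matched the scanner output of replicates 4, 2 and 3 best, with Spearman correlations of 0.826, 0.896 and 0.904, against 0.687, 0.737 and 0.699 with their own. All 3 lie within Group F, so no group mean of fads2 changes with this, but the replicate numbers within Group F are not certain. In that table fads2 averaged 7.40 ± 0.91 in Group A (SD, n = 4), against 6.05 ± 2.13 in the values used here.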
